A study of Mus musculus with 12 samples.

Results

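The RNA exosome is a barrel-shaped complex that degrades and trims RNA from its 3′ end. The 9 genes Exosc1 to Exosc9 encode its non-catalytic core, and they were chosen by gene symbol in the deposited results tables of a Dis3l knockout study in mice. Of these 9 genes, 9 were found among the 13009 genes of the embryonic stem (ES) cell table. The blastocyst table held 8 of them among 45706 genes, and Exosc6 was not analysed in blastocysts here. All of the genes found, 8 and 9, had an adjusted p-value in the authors' deposited tables.

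The core holds a cap of 3 RNA-binding proteins (Exosc1, Exosc2 and Exosc3) on a ring of 6 proteins related to bacterial RNase PH (Exosc4 to Exosc9). In mammals the ring itself has no nuclease activity. RNA is threaded through its central channel to the nuclease Dis3 in the nucleus or Dis3l in the cytoplasm, while Exosc10, a further nuclease, sits near the cap in the nucleus and nucleolus. The ring is built from heterodimers, in which Exosc4 pairs with Exosc9, Exosc5 with Exosc8 and Exosc6 with Exosc7. In the cytoplasm the SKI helicase complex feeds messenger RNA into the core.

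The study compared Dis3L KO with Dis3L WT material by RNA sequencing, in 4 groups of 3 samples. Blastocysts, the embryo stage before implantation, were collected 96 h after hCG injection of superovulated females, and each library came from a single embryo. ES cells, pluripotent cells in culture, were derived from blastocyst outgrowths on inactivated mouse embryonic fibroblasts and kept in serum medium with 500 IU/ml LIF. The strain, the allele, the age of the females and whether ES cell samples are separate lines are not given in the sources used here. The p-values measure only the spread between these samples, which lies between single embryos in blastocysts and may be technical in ES cells.

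Each deposited table gives 1 row per gene with a mean normalised count over its libraries, a log2 fold change, its standard error (SE) and DESeq2 Wald test p-values, with no value per sample and no stated direction. The positive side below is the side of the comparison on which a gene with a positive log2 fold change is higher, and neither side was assigned to a genotype. Whole reads per count column were recovered from the authors' means, over 6 columns in blastocysts (3 per side) and 4 in ES cells (2 per side), although the labels list 6 ES cell samples. The means do not give the sides of the ES cell columns. They were set by the split into 2 and 2 columns whose log2 ratios correlated best with the deposited log2 fold changes (r = 0.84). All ES cell values by side rest on this choice. The targeted gene Dis3l had a log2 fold change of −0.88 (SE 0.33, adjusted p = 0.445 by DESeq2's Wald test) for ES cells and of 0.28 (SE 1.91, adjusted p = 0.997) for blastocysts, per the authors' deposited tables. Its recovered reads were 14 and 8 in the positive-side ES cell columns and 39 and 39 in the others, so these sides lay apart. In blastocysts they were 26, 8 and 0 against 10, 4 and 8, which overlapped, so Dis3l gave no check of the blastocyst labels. Size factors, which are relative depths, ranged from 0.695 to 1.62 in blastocysts and from 0.759 to 1.25 in ES cells. Normalised reads are reads divided by the column's size factor. Pluripotency markers were present in both tables (authors' means from 82.8 to 467 in blastocysts and from 284 to 962 in ES cells), and trophectoderm markers had means from 386 to 7678 in blastocysts. Between the blastocyst sides, 2 of 6 pluripotency markers (2 negative) and 3 of 6 trophectoderm markers (1 positive, 2 negative) had an unadjusted p under 0.05 (DESeq2's Wald test). Of 4 primitive endoderm markers 0 had one, and 4 were negative. The share over all tested genes was 6.21%, and 0 of these markers passed adjustment. The part of cell make-up in the blastocyst values was not tested. Of 7 feeder fibroblast markers, 1 passed the authors' filter in blastocysts, at a mean of 9.86. In ES cells both negative-side columns stood apart on a marker list. The summed fibroblast markers were at 1536 normalised reads in negative-side column 2, against 208, 237 and 252 in the other columns. In negative-side column 1 the pluripotency markers with recovered reads (2 of 6) summed to 937, against 350, 472 and 519, and the trophectoderm markers (5 of 6) to 232, against 133, 137 and 145. A sum does not stand for each marker. Of 3 trophectoderm markers tested in ES cells, 2 had a negative log2 fold change and 1 a positive one (0.91, unadjusted p = 0.00584, DESeq2's Wald test). Of 7 fibroblast markers, 6 were negative there, 2 of them at an unadjusted p under 0.05 (DESeq2's Wald test). Of 6 pluripotency markers, 6 were negative and 0 had such a p. Over all tested ES cell genes 50.0% were negative, and 5.62% had such a p. ES cell results are therefore also given without each of the 2 negative-side columns.

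The gene whose values stand out among the 9 is Exosc3, a cap protein that contacts RNA at the entry of the channel. Exosc3 (ENSMUSG00000028322) lies on the minus strand of chromosome 4 from 45316613 to 45342732 (GRCm38), with 4 exons in its longest protein-coding transcript. The bases before its RefSeq start are shown beside those of Exosc5 (ENSMUSG00000061286), a ring protein on the plus strand of chromosome 7 from 25659164 to 25671368, because these genes had the most negative and the most positive blastocyst log2 fold change of the 8 genes. Each window holds the 250 bases upstream of the start in RefSeq (GRCm38.p6), at chr4:45320617-45320866 and chr7:25658903-25659152, 5′ to 3′ on the gene's strand. The Exosc3 window lies inside the gene span given above, because 1 of 4 GENCODE transcripts begins at 45342732, whereas the RefSeq start at 45320616 is 13 bases from that of transcript Exosc3-201. Capitals mark matches on either strand to the ETS core CGGAAG, the CCAAT box CCAAT and the GC box GGGCGG.
Exosc3: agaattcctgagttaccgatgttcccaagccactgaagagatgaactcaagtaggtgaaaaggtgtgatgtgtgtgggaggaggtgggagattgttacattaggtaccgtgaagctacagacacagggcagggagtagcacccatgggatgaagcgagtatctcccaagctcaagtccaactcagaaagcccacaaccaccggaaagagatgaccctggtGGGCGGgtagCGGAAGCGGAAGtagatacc
Exosc5: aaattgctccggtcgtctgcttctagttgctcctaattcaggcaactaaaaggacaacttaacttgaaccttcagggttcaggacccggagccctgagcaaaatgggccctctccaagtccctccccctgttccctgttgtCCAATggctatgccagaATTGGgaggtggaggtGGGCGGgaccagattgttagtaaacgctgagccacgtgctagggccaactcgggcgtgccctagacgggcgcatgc

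The Exosc3 window held 2 ETS core matches, 1 GC box and 0 CCAAT boxes, whereas the Exosc5 window held 0 ETS core matches, 1 GC box and 2 CCAAT boxes. RefSeq windows were matched for 7 of the 9 genes, and they contained the ETS core in 3 (Exosc3, Exosc6 and Exosc8), against 13.6% of all 32851 windows. A CCAAT box was found in 3 (Exosc1, Exosc2 and Exosc5), against 33.9% of all windows, and a GC box in 5, against 32.7%. No window of the 7 held both the ETS core and a CCAAT box. The share of all windows with both was not counted, so nothing is read from this. Neither the TATA box TATAAA, the YY1 site AAGATGGC, the cyclic AMP response element TGACGTCA nor the NRF1 palindrome was found in any of the 7, against 12.4%, 1.57%, 1.55% and 0.782% of all windows. The E-box CACGTG was found in 1, Exosc5, where it is left in lower case, against 6.02%. The 2 ETS core matches of Exosc3 abut, and no other capitals touch. Such matches describe letters only, and no binding was measured.

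No exosome core gene passed the threshold in blastocysts. An adjusted p-value under 0.05 (DESeq2's Wald test, the authors' deposited table) was found for 0 of 8 genes, against 15 of 15209 tested genes (0.0986%). Without adjustment, 1 of the 8 genes, Exosc3, had a p-value under 0.05, against 6.21% of all tested genes and 3.53% with its negative sign, and 0 of 8 had one under 0.01, against 1.77%. Of the 8 genes, 6 had a negative log2 fold change, against 51.7% of all tested genes. Their median was −0.38, with a range from −1.68 to 0.73, and the median over all tested genes was −0.038. In bulk libraries fewer cells of a type and less RNA per cell cannot be told apart.

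Among the cap genes, Exosc3 was recovered in blastocysts at 39.98, 50.7 and 11.4 normalised reads on the positive side, from 56, 50 and 10 reads. On the negative side it was at 104, 75.8 and 150, from 168, 68 and 104 reads. The highest positive-side embryo thus lay below the lowest negative-side embryo, and the third positive-side column was the lowest of all. The mean on the negative side was 3.22-fold that on the positive side. The log2 fold change of Exosc3 in the authors' deposited table was −1.68 with an SE of 0.73, an unadjusted p of 0.0219 and an adjusted p of 0.692 (DESeq2's Wald test). The difference did not pass the threshold after adjustment over all genes. The log2 ratio of reads was −1.69, and without positive-side column 3 it was −1.28.

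Exosc2, the cap protein next to Exosc3 that also carries RNA-binding domains, was at 117, 85.3 and 142 normalised reads in the positive-side columns against 147, 100 and 176 in the negative-side columns. The sides overlapped, and its log2 fold change in the authors' deposited table was −0.30 with an SE of 0.52. Exosc1, the remaining cap protein, was at 37.1, 71.0 and 38.9 in the positive-side columns against 77.9, 24.5 and 43.2 in the negative-side columns. Its negative-side embryos spread over 3.18-fold, the widest range of the 8 genes on that side. In the authors' deposited table the Exosc1 log2 fold change was 0.0058 with a 95% interval from −1.58 to 1.59, so it covers changes of either sign up to those bounds.

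**Figure D1:**
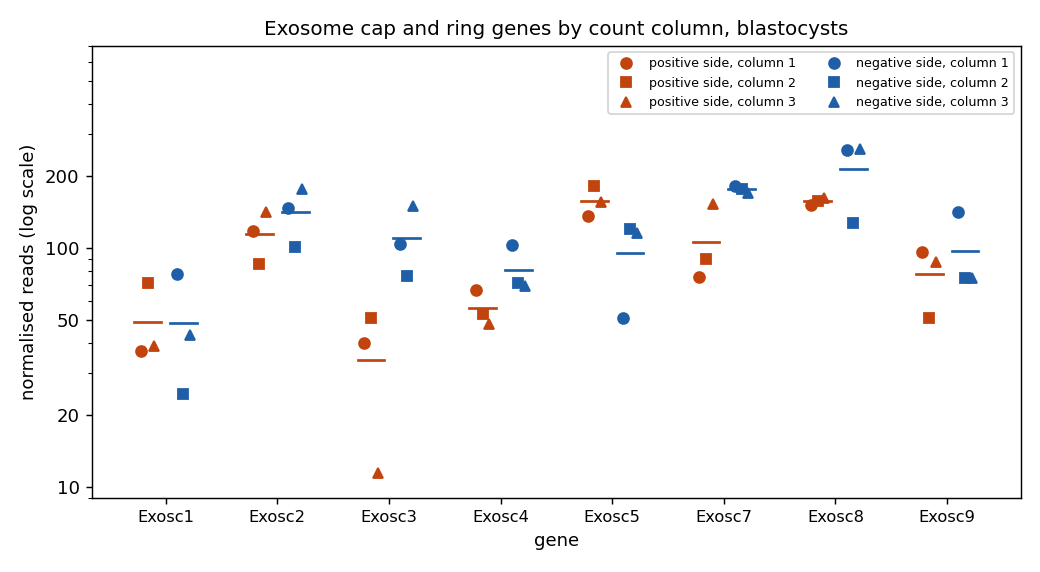
Normalised reads (log axis) of 8 exosome cap and ring genes in the 6 blastocyst count columns, with orange symbols for the positive side, blue for the negative side, 1 symbol per column and a line at the mean of each side. Exosc3 lies between 11.4 and 50.7 on the positive side and between 75.8 and 150 on the negative side, and the sides also lie apart for Exosc4, Exosc5 and Exosc7.

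Of the ring genes, Exosc4 and Exosc7 lay lower on the positive side without overlap, and Exosc5 lay higher. Exosc7, the partner of Exosc6 in the ring, was at 75.7, 89.3 and 153 normalised reads on the positive side. Its negative-side values were 181, 176 and 170, which differed by 1.06-fold, the narrowest range of the 8 genes on that side. The authors' deposited table gave Exosc7 a log2 fold change of −0.73 with an SE of 0.50 and an unadjusted p of 0.146 (DESeq2's Wald test). Without positive-side column 3, the column nearest to the negative side, the log2 ratio was −1.09, so this embryo moved the value most.

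Exosc5, a ring protein that pairs with Exosc8, had the most positive value of the 8 genes. It was at 136, 181 and 155 normalised reads in the positive-side columns against 50.7, 120 and 115 in the negative-side columns. The first negative-side embryo was the lowest by far, and without it the log2 ratio went from 0.72 to 0.42. The log2 fold change in the authors' deposited table was 0.73 with an SE of 0.55, and the unadjusted p was 0.182 (DESeq2's Wald test). The partner Exosc8 went the other way in its mean: it was at 151, 156 and 162 in the positive-side columns against 256, 127 and 259 in the negative-side columns. The positive-side embryos were within 1.07-fold of each other, while the second negative-side embryo lay below them all. Exosc8 had a log2 fold change in the authors' deposited table of −0.45 with an SE of 0.46. A difference in response between Exosc5 and Exosc8 was not tested.

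Exosc4, a ring protein that pairs with Exosc9, was at 66.4, 52.8 and 48.0 normalised reads in the positive-side columns against 103, 71.4 and 69.1 in the negative-side columns. The gap between the sides was small, from 66.4 to 69.1. Its log2 fold change in the authors' deposited table was −0.54 with an SE of 0.64 and an unadjusted p of 0.398 (DESeq2's Wald test). Exosc9 was at 96.4, 50.7 and 86.8 in the positive-side columns against 141, 74.7 and 74.8 in the negative-side columns. Only the first negative-side embryo lay above the positive side, and without it the log2 ratio turned from −0.31 to 0.06. The authors' deposited table gave Exosc9 a log2 fold change of −0.32 with an SE of 0.62. The sides did not overlap in 4 of the 8 genes (Exosc3, Exosc4, Exosc5 and Exosc7). Among 394 genes sampled over the same range of means, 13.7% had sides that did not overlap.

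Summed over the 8 genes, the positive-side embryos held 720, 737 and 798 normalised reads and the negative-side embryos 1060, 770 and 1056. The sides overlapped, since the second negative-side embryo lay within the positive range. The cap genes alone summed to 194, 207 and 192 on the positive side and to 329, 201 and 368 on the negative side. The highest value of a gene was found in negative-side column 1 for 4 genes and in negative-side column 3 for 3. The higher sums thus came from the same pair of embryos in the cap and in the ring, where the sums were 731 and 688 against 525 to 606 in the other embryos. Whether cell number, stage or RNA quality of the embryos moved with these sums was not tested.

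**Figure D2:**
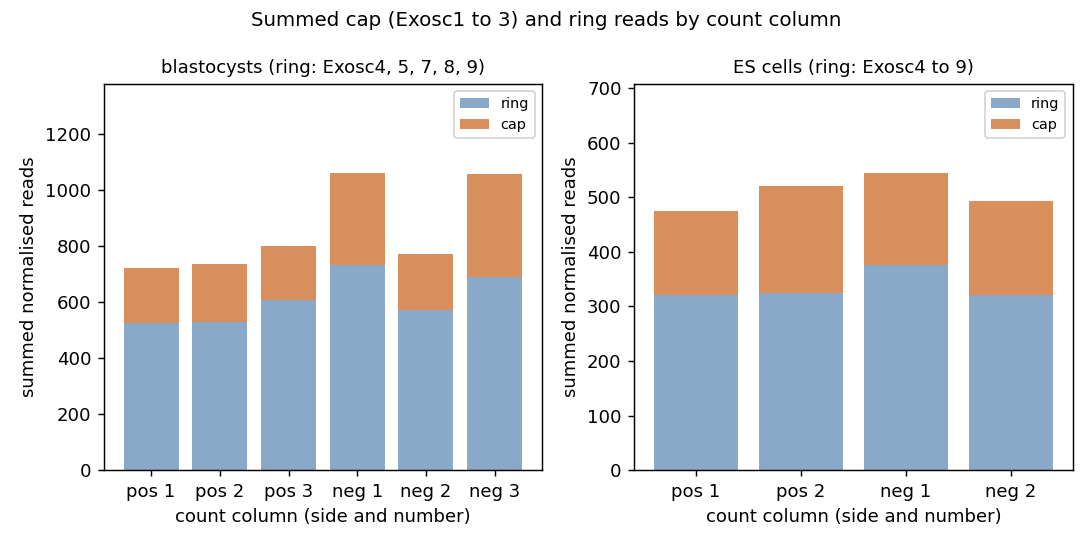
Summed normalised reads of the cap genes (orange, Exosc1 to Exosc3) stacked on the ring genes (blue) in each count column, with blastocysts on the left and ES cells on the right. Negative-side blastocyst columns 1 and 3 reach 1060 and 1056, the other 4 embryos lie between 720 and 798, and the ES cell columns lie between 476 and 545.

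In ES cells no exosome core gene passed the threshold either. The adjusted p-value in the authors' deposited table was under 0.05 for 0 of 9 genes (DESeq2's Wald test), against 28 of 10739 tested genes (0.261%). Without adjustment, the p-value of 1 of the 9 genes, again Exosc3, was under 0.05, against 5.62% of all tested genes and 2.21% with its positive sign, and 0 of 9 were under 0.01, against 2.02%. Negative log2 fold changes were found for 5 of the 9 genes, against 50.0% of all tested genes. Their median was −0.0091, from −0.47 to 0.66, and the median over all tested genes was −0.00011. These log2 fold changes are shrunken towards 0, and for each of the 9 genes the log2 ratio of reads lay farther from 0 than the deposited value, so sizes are not comparable with blastocysts.

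Exosc3 was at 45.5 and 59.3 normalised reads in the positive-side ES cell columns, from 57 and 45 reads, and at 28.5 and 20.3 on the negative side, from 30 and 21 reads. The positive side was higher in each of its columns, by 2.15-fold in the mean. In the authors' deposited table the Exosc3 log2 fold change was 0.66 with an SE of 0.32, an unadjusted p of 0.0428 and an adjusted p of 0.858 (DESeq2's Wald test). The log2 ratio of reads was 1.10, and without negative-side column 2, where fibroblast markers were high, it was 0.88. The signs of Exosc3 thus differ between the tables. Opposite differences between genotypes and tables made in opposite directions cannot be told apart, since neither table states its direction.

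The other cap genes lay closer together. Exosc2 was at 66.3 and 96.1 normalised reads in the positive-side columns against 97.9 and 119 in the negative-side columns, with a log2 fold change of −0.32 and an SE of 0.29 in the authors' deposited table. The columns did not overlap, but the nearest values of the sides, 96.1 and 97.9, differed by less than the spread within either side. Exosc1 was at 43.9 and 40.8 in the positive-side columns against 41.8 and 33.8 in the negative-side columns, which overlapped. Its log2 fold change in the authors' deposited table was 0.10 with a 95% interval from −0.53 to 0.73.

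**Figure D3:**
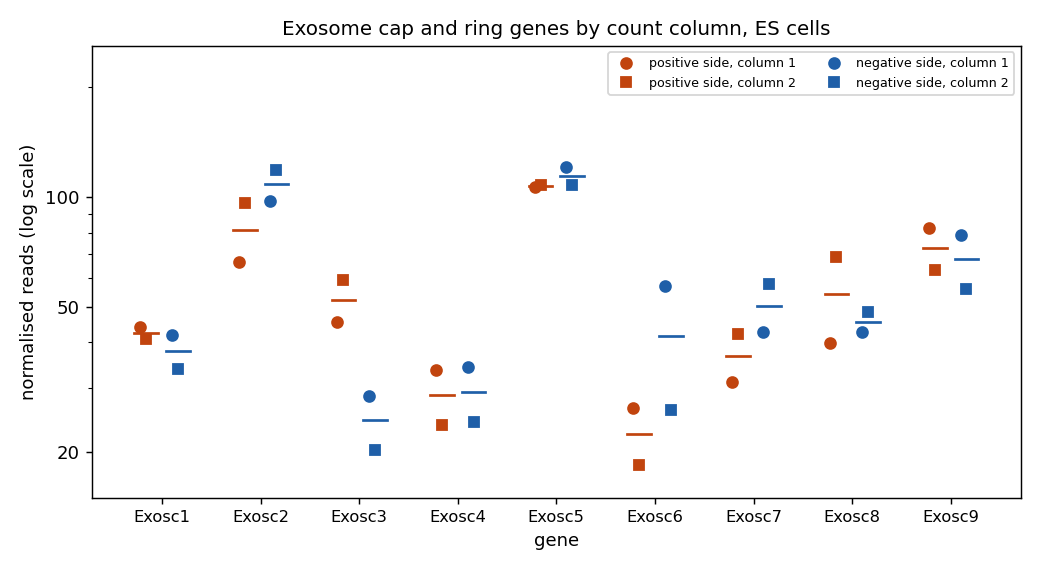
Normalised reads (log axis) of the 9 exosome cap and ring genes in the 4 ES cell count columns, with orange symbols for the positive side, blue for the negative side and a line at the mean of each side. Exosc3 lies at 45.5 and 59.3 in the positive-side columns against 28.5 and 20.3 in the negative-side columns.

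Exosc7 was the 1 gene that lay lower on the positive side without overlap in ES cells as well as in blastocysts. In ES cells it was at 31.1 and 42.1 against 42.8 and 58.0 normalised reads. Neither comparison states its direction, so the positive sides may be different genotypes. The share of all genes that match in this way was not counted. The gap between the nearest columns, 42.1 and 42.8, was small beside the spread within a side, and the log2 fold change was −0.30 with an SE of 0.32 in the authors' deposited table. Exosc5 was at 107 and 108 in the positive-side columns against 121 and 108 in the negative-side columns, and these columns were the closest of any of the 9 genes on either side. The Exosc5 log2 fold change in the authors' deposited table was −0.072 with a 95% interval from −0.61 to 0.46. The sides did not overlap in 4 of the 9 genes (Exosc2, Exosc3, Exosc5 and Exosc7), against 40.8% of 9867 tested genes with recovered reads.

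Exosc4, Exosc8 and Exosc9 overlapped between the sides. Exosc4 was the lowest of the 9 genes by mean (28.9 in the authors' deposited table), at 33.5 and 23.7 normalised reads in the positive-side columns against 34.2 and 24.2 in the negative-side columns. Exosc8 was at 39.9 and 68.5 against 42.8 and 48.3, and its positive-side columns differed by 1.72-fold, the widest range on that side. Exosc9 was at 82.2 and 63.2 against 78.9 and 56.0. Their log2 fold changes in the authors' deposited table were −0.0091 for Exosc4, 0.15 for Exosc8 and 0.082 for Exosc9, with SEs of 0.33, 0.32 and 0.30. For these 3 genes the log2 ratio changed sign when 1 column was left out, with ranges from −0.30 to 0.24, from −0.19 to 0.59 and from −0.12 to 0.38.

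Exosc6 (ENSMUSG00000109941), a single-exon ring gene on the plus strand of chromosome 8 (111056339 to 111057664), was at 26.3 and 18.4 normalised reads in the positive-side columns against 57.0 and 26.1 in the negative-side columns. Negative-side column 1, with 60 reads, decided its value: the log2 ratio was −0.89 with that column and −0.22 without it. The authors' deposited table gave a log2 fold change of −0.47 with an SE of 0.33. In GENCODE M21, 1326 of its 1326 exonic bases, or 100%, also belong to an exon of Aars, an alanyl-tRNA synthetase gene on the same strand. Reads from the 2 genes cannot be told apart there, so the Exosc6 value is uncertain. In ES cells Aars had a mean of 802, against 32.0 for Exosc6, and a log2 fold change of 0.11 in the authors' deposited table. The Aars row of the authors' deposited blastocyst table spans the same end, 111057664.

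Without negative-side column 2, which held the most fibroblast marker reads, the log2 ratio of Exosc2 went from −0.42 to −0.27, that of Exosc7 from −0.46 to −0.22 and that of Exosc6 from −0.89 to −1.35. The ratio of Exosc1 went from 0.16 to 0.018, that of Exosc4 from −0.029 to −0.26, that of Exosc5 from −0.091 to −0.17 and that of Exosc8 from 0.25 to 0.34. Exosc9 was the 1 gene of the 9 whose sign changed without this column, from 0.11 to −0.12. Negative-side column 1 had the highest sums of pluripotency and trophectoderm markers. Without that column, the ratio was 0.33 for Exosc1, −0.55 for Exosc2, 1.37 for Exosc3 and −0.0099 for Exosc5. It was −0.22 for Exosc6, −0.66 for Exosc7, 0.17 for Exosc8 and 0.38 for Exosc9. Exosc4 was the 1 gene of the 9 whose sign changed without column 1, from −0.029 to 0.24. The part of other cell types in these values was not tested.

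**Figure D4:**
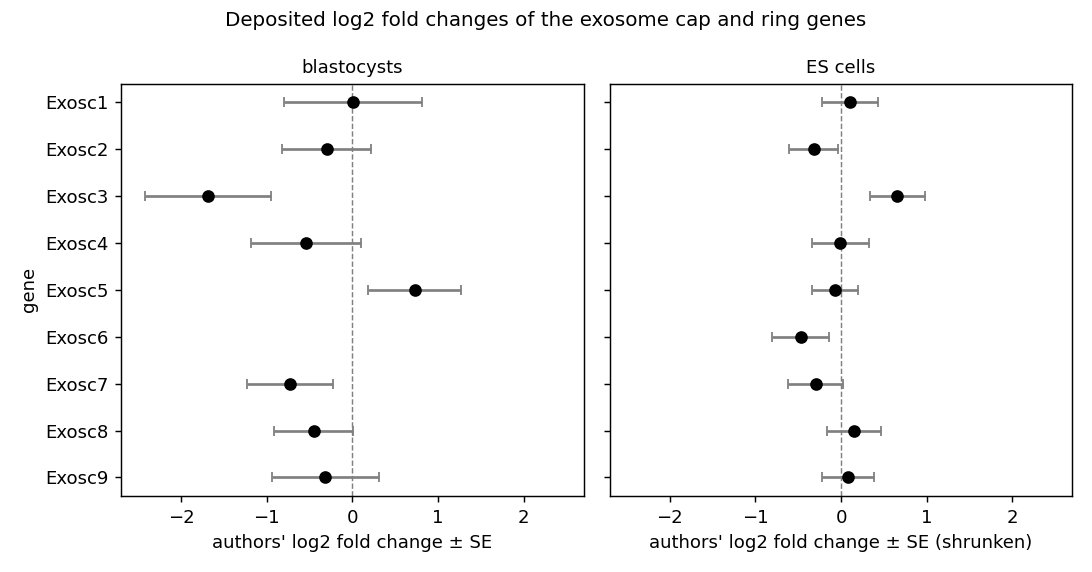
Log2 fold changes of the authors' deposited tables with bars of 1 SE, for blastocysts (left, 8 genes) and ES cells (right, 9 genes, shrunken values). Exosc3 is the gene farthest from 0 in each panel, at −1.68 and 0.66.

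The other core genes lie on 5 further chromosomes of GRCm38, as the tables give them. Exosc1 (ENSMUSG00000034321) is at chr19:41922980-41933314 on the minus strand, and Exosc2 (ENSMUSG00000039356) at chr2:31670715-31681349 on the plus strand. Exosc4 (ENSMUSG00000034259) is at chr15:76327397-76330677 and Exosc7 (ENSMUSG00000025785) at chr9:123113215-123136129, both on the plus strand. Chromosome 3 holds Exosc8 (ENSMUSG00000027752, chr3:54728678-54735393, minus strand) and Exosc9 (ENSMUSG00000027714, chr3:36552606-36565727, plus strand). Overlap with neighbours was smaller for these genes than for Exosc6. Exosc4 shares 385 exonic bases (19.8%) with Oplah on the opposite strand, Exosc2 358 (12.4%) with the antisense gene Gm13427, and Exosc9 510 (10.8%) with the cyclin gene Ccna2. For Exosc3 the shared part was 53 bases (4.00%), with Dcaf10. In the authors' deposited blastocyst table the neighbours' log2 fold changes were −0.38 for Oplah (p = 0.571) and −0.79 for Ccna2 (p = 0.169), with the same sign as Exosc4 and Exosc9, and 0.67 for Dcaf10 (p = 0.298), with the opposite sign to Exosc3 (DESeq2's Wald test). The blastocyst libraries were not described as stranded, so reads within such overlaps cannot be told apart there. Outside overlapping genes, a stretch of at least 100 bases with at least 95% identity to another gene was found for 1 gene, Exosc4, over 113 bases of its 1796-base transcript.

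By mean level, the 8 genes in blastocysts all lay above the median of the tested genes, and the 9 genes in ES cells lay on both sides of it. The tested sets differ: 15209 genes with means down to 1.52 (median 46.3) in blastocysts and 10739 down to 9.18 (median 62.4) in ES cells. These positions are therefore not comparable between materials. By the authors' mean, the 8 genes in blastocysts lay between 48.8 (Exosc1, percentile 51.0 of tested genes) and 185 (Exosc8, percentile 77.0). In ES cells they lay between 28.9 (Exosc4, percentile 26.8) and 111 (Exosc5, percentile 67.7). The authors' mean per kb of annotated exon, which allows genes to be compared, was highest for Exosc3 (54.3), Exosc2 (44.3) and Exosc8 (42.8) in blastocysts and lowest for Exosc1 (12.03). In ES cells it was highest for Exosc2 (32.8) and Exosc3 (29.0) and lowest for Exosc7 (7.24). The genes thus spanned 4.51-fold in blastocysts and 4.54-fold in ES cells, in RNA level.

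This order depends on the length used. Per kb of the longest protein-coding transcript, Exosc8 (143) and Exosc7 (134) were highest in blastocysts and Exosc5 (66.1) and Exosc2 (56.2) in ES cells. Exosc1 was the lowest of the 8 in blastocysts under each length. A comparison of each gene between materials needs no length if the same exons were counted. The annotated span of Exosc5 differed, at 25659153-25668031 for blastocysts and 25659164-25671368 for ES cells. The scales differed too, since all means sum to 4.61e+06 in blastocysts and 1.51e+06 in ES cells. The ratios are therefore given only beside those of other genes. The blastocyst mean was 3.72 times the ES cell mean for Exosc8 and 3.24 times for Exosc7. It was 2.37 times for Exosc4 and 1.87 times for Exosc3, and between 1.14 and 1.35 times for Exosc5, Exosc1, Exosc9 and Exosc2. Over 9744 genes tested in both tables, the median ratio was 1.52 with quartiles of 0.691 and 2.82, so Exosc7 and Exosc8 lay above the upper quartile. The libraries of the 2 materials were made by different protocols, with tagmented cDNA in blastocysts and stranded ribosome-depleted RNA in ES cells, so protocol and material cannot be told apart.

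The other genes of the pathway were described by the same counts. Dis3, the nuclear nuclease of the core, had log2 fold changes of 0.40 (SE 0.42) for blastocysts and 0.17 (SE 0.24) for ES cells, per the authors' deposited tables. Exosc10 had −0.23 in each table (SE 0.36 and 0.26). Adjusted p-values under 0.05 were found for 0 of 3 nuclease genes, 0 of 4 genes of the SKI complex and its adaptor Hbs1l, and 0 of 10 nuclear exosome cofactors in each table (DESeq2's Wald test), and at an unadjusted p under 0.05 there were 0 in blastocysts and 1, 0 and 1 in ES cells. The nuclease was Dis3l, and 3.42% of all tested genes had such a p with a negative sign.

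The cofactor was Papd7, a noncanonical poly(A) polymerase, with a log2 fold change of −0.65 in ES cells in the authors' deposited table. Medians in blastocysts were 0.28 for the nucleases, 0.30 for the SKI list and 0.10 for the cofactors, against −0.38 for the 8 core genes. Among 23 deadenylation and decapping genes the blastocyst median was 0.023, 0 passed the adjusted threshold in either table, and 1 had an unadjusted p under 0.05, in ES cells, where 5.62% of all tested genes had one. That gene was Cnot6, a deadenylase, at 0.50 in the authors' deposited table. The core proteasome, another complex of stacked protein rings, was lower on the positive side of the blastocyst table in 13 of 14 genes, against 51.7% of all tested genes, with a median of −0.55. Of these, 5 had an unadjusted p under 0.05 with a negative sign (Psma1, Psma2, Psmb1, Psmb3 and Psmb4, from −1.14 to −0.81), against 3.53% of all tested genes, and 0 passed adjustment (DESeq2's Wald test). In ES cells the medians were −0.030 for the proteasome, −0.0091 for the 9 core genes, −0.23 for the nucleases, −0.015 for the SKI list, 0.045 for the cofactors and 0.071 for deadenylation and decapping. Differences between these lists were not tested.

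**Figure D5:**
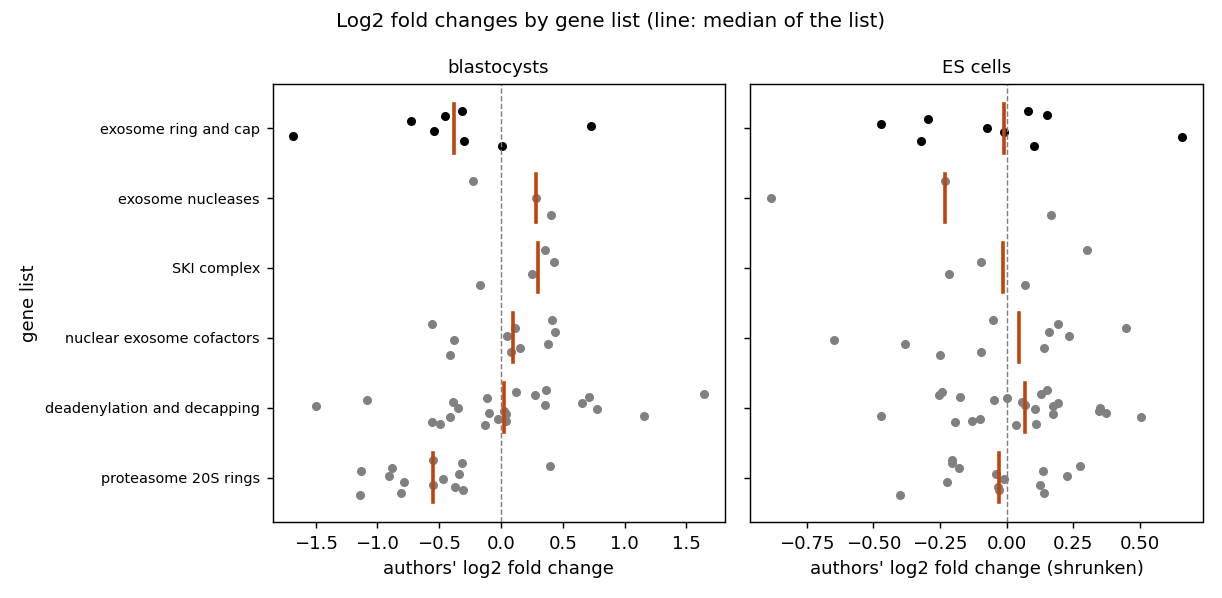
Authors' log2 fold change of each gene (points) in 6 gene lists in blastocysts (left) and ES cells (right, shrunken), with an orange line at each list's median. The exosome core median is −0.38 in blastocysts and −0.0091 in ES cells, and the proteasome median is −0.55 and −0.030.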

How the data were processed

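The values came from 2 deposited tables of comparison results, 1 per material, and 0 columns of per-sample values of other samples were used. Per the submitters' processing notes, STAR 2.4.0b, featureCounts of Subread 2.0.1 and DESeq2 1.34.0 were used on GRCm38. Per the file headers, the signal column is the authors' mean of normalised counts, and the log2 columns are the authors' fold change on the log2 scale and the standard error of it. The score column is the authors' deposited Wald statistic. The p-value columns are the authors' deposited two-sided p-value and adjusted p-value.

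The design named the authors' Wald test for tables with no counts per sample, and that test was used. Genes with an adjusted p-value under 0.05 were counted as called. The members and lists were chosen with earlier results of these data known, and named list genes are Dis3l, Dis3, Exosc10 and any with an unadjusted p under 0.05. A mean is a sum of whole reads with a fixed weight per column. The weights were read from the lowest means, and each mean was solved for whole reads. In blastocysts the solution also had to give back the deposited log2 fold change within 1e-05 at the deposited standard error. It did so for 8 of 8 genes of interest, where the next best solution was off by at least 0.0014. In ES cells 12130 of 12137 genes with means up to 350 were solved uniquely. Their columns were put on sides by the best correlation of log2 ratios with the deposited log2 fold changes, and only splits of 2 against 2 columns were tried. For the blastocyst background every 10th of 3956 genes in the same range of means was solved, 394 of 396. In simulated blastocyst counts 37 of 37 genes were recovered, at means below those of Exosc7 and Exosc8. The simulated fold changes and SEs came from the same model that the recovery uses, so this checks the arithmetic only. Lengths are from GENCODE M21 (GRCm38). Copies were searched with BLAST 2.17.0, and the calculations used Python 3.11.15, numpy 2.4.6 and scipy 1.17.1. Recovered columns were not assigned to samples, so no test was run across them. Alternatives were stricter thresholds, other sets of genes for the adjustment, 1 column or 1 gene left out and other lengths.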

Additional observations from a re-analysis of the deposited data

Results flagged for a closer look

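Exosc3 and Exosc5 had count columns that lay apart between the sides in each table but with opposite signs. Sides lay apart in 13.7% of 394 sampled blastocyst genes and in 40.8% of 9867 ES cell genes, so in ES cells this is common. The authors' deposited log2 fold changes were −1.68 in blastocysts and 0.66 in ES cells for Exosc3, and 0.73 and −0.072 for Exosc5. The difference between materials was not tested, because no model over both tables could be fitted and the direction of each comparison is not stated. The sides were barely apart for Exosc5 in ES cells, where the nearest columns of the 2 sides both round to 108 normalised reads.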

How the results depend on the processing

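No paired analysis was possible because the tables hold no value per sample and the recovered count columns carry no replicate number. The count of called genes stayed at 0 in each table at an adjusted p under 0.01, with adjustment over every gene with a p-value, with a mean of at least 50 and with autosomal genes only. At an unadjusted p under 0.01, the count of 1 gene became 0 in blastocysts and 0 in ES cells. The blastocyst median of −0.38 ranged from −0.45 to −0.32 with 1 gene left out and was −0.45 with a mean of at least 50. From recovered reads it was −0.38. Those reads had been solved to give back the deposited log2 fold changes, so this value is no separate check. The ES cell median of −0.0091 ranged from −0.04 to 0.04 with 1 gene left out, was −0.072 with a mean of at least 50 and was −0.029 from recovered reads, so its sign is not settled. In the order by level per length, 3 of 8 genes in blastocysts and 3 of 9 in ES cells kept their rank with the longest transcript, and 1 and 1 with the longest protein-coding transcript, an alternative chosen after seeing the data, like the medians from reads. With 1 column left out, 48 of 48 blastocyst log2 ratios stayed within 1 SE of the ratio of reads over all columns. In ES cells 31 of 36 did, with Exosc2, Exosc6 and Exosc8 beyond it. This comparison was also chosen after seeing the data. Its counts say little about how firm the values are. Leaving out 1 column moves a side's mean by only a part of the spread between columns, and the SE grows with that spread. The sign changed for 2 genes in blastocysts (Exosc1 and Exosc9) and for 3 genes in ES cells (Exosc4, Exosc8 and Exosc9). Against the authors' shrunken values, 27 of 36 ES cell ratios stayed within 1 SE. There the reads with no column left out already lay beyond it for Exosc3 and Exosc6. Exosc3 ranged from −2.09 to −1.28 in blastocysts and from 0.88 to 1.37 in ES cells, where the unshrunken reads alone moved it from 0.66 to 1.10. Depth in ES cells ranged from 121 reads over all columns for Exosc4 to 455 for Exosc5.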

Other observations

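Of the 48 recovered blastocyst read counts of the exosome core genes, 45 were even numbers, and between 94.9% and 98.7% of counts were even in the sampled genes, whereas in ES cells 48.9% to 51.0% were. Blastocyst reads of a gene are therefore not independent of each other, and their counting precision is lower than the numbers alone would give.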
